A study of Mus musculus with 6 samples.

Results

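The 29 transcripts described here encode enzymes of fatty acid oxidation and the peroxisome proliferator-activated receptors (PPARs), with a coactivator and 4 genes known as PPAR targets. They were chosen by function, by symbol, from the 23955 symbols of the deposited table. All 29 were found, 25 of them had a mean of at least 1 TPM (transcript abundance corrected for transcript length and scaled to a fixed total per library) over the libraries, and those 25 were tested. RNA was sequenced from haematopoietic stem cells (HSCs) of obese and lean mice. The obese mice were db/db, homozygous for a mutant leptin receptor and obese, and the controls were wild-type (WT) littermates; all were C57BL/6 mice of 4 months. From the bone marrow of each, 20000 lineage-negative Sca-1+ c-Kit+ CD150+ CD48- cells were sorted per library. Each of 3 independent experiments gave 1 db/db and 1 WT library, so n = 3 in each group, and the number of mice behind each library is not stated.

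Fatty acids enter mitochondria as carnitine esters and are then shortened in repeated cycles of dehydrogenation, hydration, a second dehydrogenation and thiolysis, which pass electrons to the respiratory chain. Very long and branched chains are first shortened in peroxisomes. The PPARs are nuclear receptors that bind fatty acids, pair with retinoid X receptors and switch on many genes of this pathway. In mouse HSCs, fatty acid oxidation under PPAR delta has been linked to the maintenance of the stem cell pool, and fatty acid supply is raised in obesity.

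None of the 25 tested genes passed as different between db/db and WT HSCs, and the 4 genes with a mean under 1 TPM were not tested. In limma on log2(TPM + 1) with Benjamini-Hochberg adjustment over 11931 genes, 0 of the 25 tested genes passed in either direction at an adjusted p under 0.05, where 0.0335% of all genes did. Their adjusted p ran from 0.919 to 0.998, and 0 of the 25 had an unadjusted p under 0.05 in either direction, against 4.1% of all genes higher and 1.25% lower in db/db. That 0 did not hold under all other settings, which are given below. The fitted differences ran from -0.80 for Acadsb to 0.80 for Ppard on the log2 scale. The 95% interval of the difference held 0 for all 25 genes. It lay within 1 log2 unit of 0 on both sides for 14 genes and reached further for the other 11, so these libraries do not bound those 11 differences to less than 2-fold. In bulk RNA a change in transcript per cell cannot be told apart from a change in the share of cells that hold it.

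Relative to the rest of the transcriptome, the tested genes lay low. The median difference, db/db minus WT, was 0.02 over the 25 genes and 0.18 over all 11931 genes, and 24% of the 25 lay above the median of all genes, against 50% of all genes. The median of the 25 minus that of all genes was -0.16 over all libraries, and -0.09, -0.33 and -0.20 in experiments 1, 2 and 3. It was -0.14 after median-of-ratios scaling of the libraries. As deposited, 14 of the 25 genes were higher in db/db and 11 lower, against 8125 and 3806 of all 11931 genes. After that scaling 6 of the 25 were higher and 19 lower, against 6001 and 5930 of all genes. The sign of a small difference thus depended on the scale. The same sign in all 3 experiments was seen for 3 genes higher in db/db (Acaa2, Hsd17b4 and Ppard), where 22.7% of all genes did so, and for 4 genes lower (Acads, Acadsb, Etfb and Pdk4), where 7.55% did; for Etfb the libraries of experiment 3 were all but equal, so its place in this count rests on a tie. These counts describe the genes, and no test of the list was made.

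**Figure D1:**
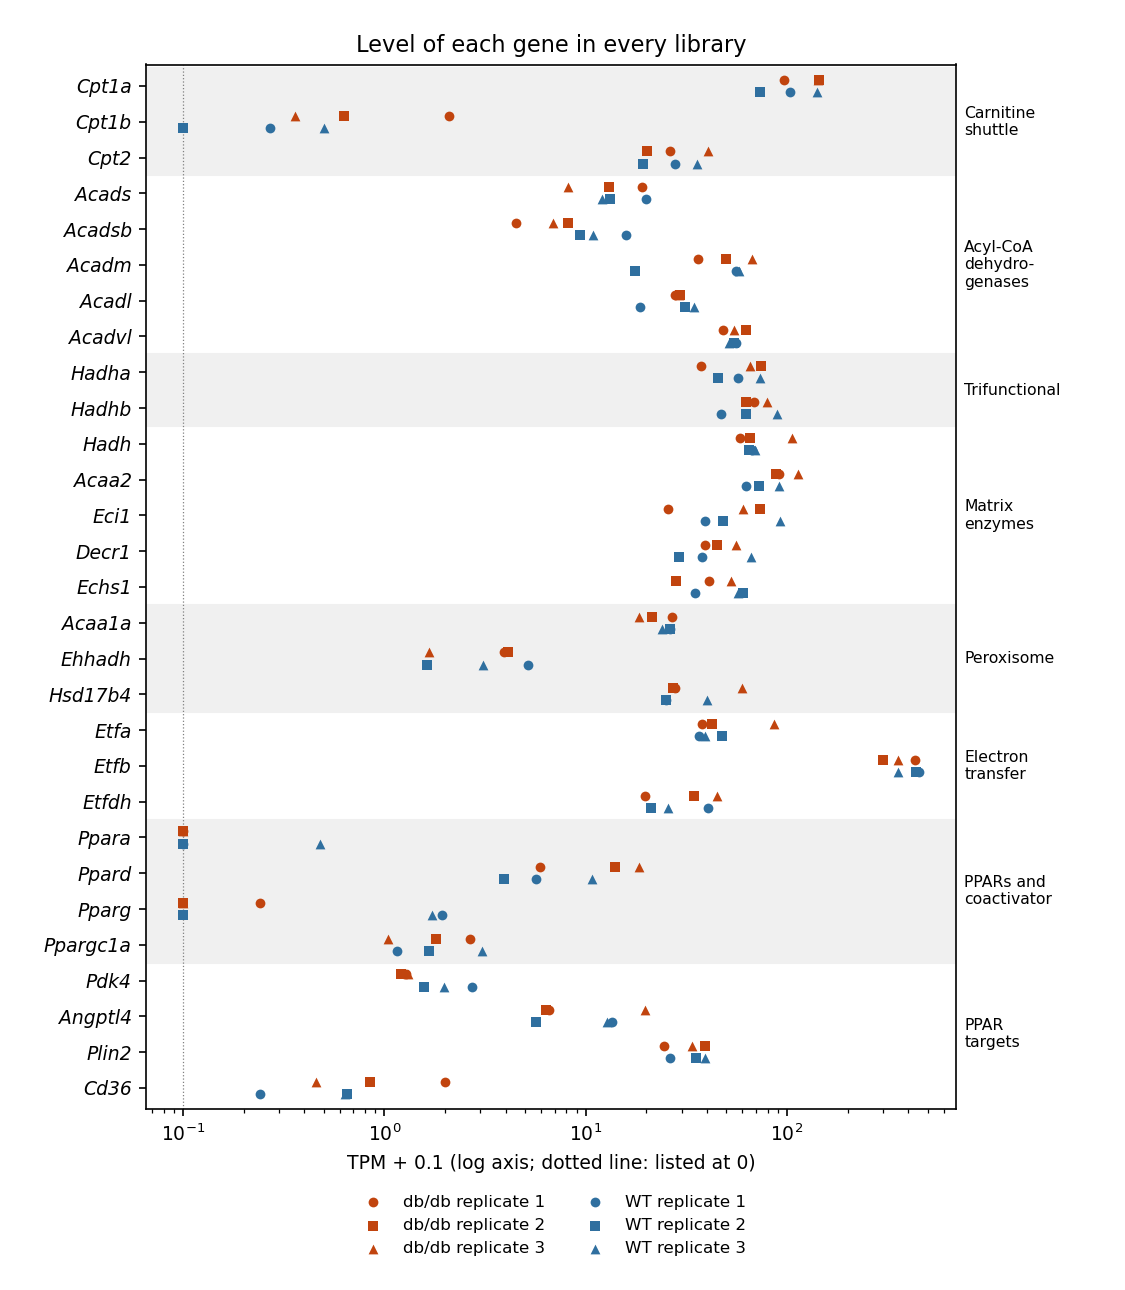
Transcript level of each of the 29 genes in each of the 6 libraries, as TPM + 0.1 on a log axis, with db/db points above WT points in each row, 1 marker shape per experiment and genes grouped by role. Etfb lies above every other gene in all libraries, Cpt1b, Cd36, Ppara and Pparg lie near or at 0, and only Acadsb and Pdk4 show db/db libraries that do not overlap the WT libraries.

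The libraries were checked before single genes were read. Size factors by the median-of-ratios method were 0.915 to 1.23 for db/db and 0.815 to 1.14 for WT. Of the 11 genes of the HSC list, all were above 0 in every library, Cd48 among them, although the sort took cells without CD48 on their surface. Cd48 was 9.10, 21.4 and 1.63 TPM in db/db and 5.35, 4.20 and 1.09 TPM in WT. All 11 had differences above 0, as did 8125 of all 11931 genes, with a median of 0.34, against 0.18 for all genes. The db/db libraries lay above the WT libraries for 2 of the 11 (18.2%, against 7.85% of all genes). Slamf1, 1 of these, was 31.0 ± 7.17 TPM in db/db and 17.8 ± 6.04 TPM in WT (SD, n = 3 each). It did not pass in limma (unadjusted p = 0.0406, adjusted p = 0.919). Genes of other cell types were also listed. The summed level of 10 granulocyte genes, with S100a8 the highest, was 3870, 1985 and 1464 TPM in db/db and 4537, 360 and 286 TPM in WT, so WT replicate 1 lay far above WT replicates 2 and 3. All 9 granulocyte genes tested had differences above 0, as did 8125 of all 11931 genes, with a median of 1.68. Of these, 7 were higher at an unadjusted p under 0.05 in limma, against 4.1% of all genes, and 0 had groups without overlap. The sums for erythroid, megakaryocyte, endothelial and lymphoid markers, led by Car2, Pf4, Egfl7 and Nkg7, averaged 1457, 734.5, 167 and 172 TPM in db/db and 684, 566.5, 129 and 79.1 TPM in WT. Pf4 alone was 468 ± 139 TPM in db/db and 319 ± 138 TPM in WT (SD, n = 3 each). Of the 9 megakaryocyte genes tested, 5 had differences above 0 and 4 below, with a median of 0.07, against 0.18 for all genes. At an unadjusted p under 0.05 in limma, 2 of the 9 were lower in db/db and 0 higher, against 1.25% and 4.1% of all genes. In the erythroid list the beta-globin gene Hbb-b2 rose in db/db, at 1348, 513 and 256 TPM in db/db and 89.3, 79.0 and 55.1 TPM in WT (log2 difference 2.93, adjusted p = 0.000688 in limma), and no other marker of these lists passed. This call was lost without the filter on low values and without the variance trend, where 0 genes of the whole table passed. Its near-identical copy Hbb-b1 can share its reads. The alpha-globin gene Hba-a1 was 12.4 ± 10.4 TPM in db/db and 13.5 ± 15.4 TPM in WT (SD, n = 3 each), and its groups overlapped. Car2 was 694 ± 83.7 TPM in db/db and 566 ± 168 TPM in WT (SD, n = 3 each). The part of such cells in the values below was not tested. Of the erythroid and megakaryocyte markers, Hba-a2 and Gp6 were listed at 0 in every library. Of 8 lymphoid markers, Cd3e, Ms4a1, Ncr1 and Pax5 were listed at 0 in every library. Lepr was listed at 1.51, 2.44 and 2.04 TPM in db/db and at 2.34, 2.93 and 2.79 TPM in WT. The db mutation alters splicing of the long isoform, so this total does not check the genotype.

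Entry into mitochondria starts with carnitine palmitoyltransferase 1 on the outer membrane, the step that malonyl-CoA holds back. Cpt1a, its liver-type form, was 96.2, 143 and 143 TPM in db/db replicates 1, 2 and 3 and 103, 73.6 and 140 TPM in the WT libraries. It was the gene with the second highest mean of the 29, and the groups overlapped, with WT replicate 2 the lowest. The log2 difference was 0.29 (SE 0.29, adjusted p = 0.92 in limma), of which experiment 2 gave 0.95 and experiments 1 and 3 gave -0.10 and 0.03. Cpt1b, the muscle-type form, was at 2, 0.53 and 0.26 TPM in db/db and at 0.17, 0 and 0.40 TPM in WT. Its mean of 0.56 TPM was under the level needed for a test, and it overlaps the non-coding gene Gm44502 in the RefSeq annotation of GRCm38.p6, so its reads are uncertain. Cpt2, which rebuilds acyl-CoA on the inner membrane, was 25.98, 20.1 and 40.4 TPM in db/db and 27.8, 19.2 and 35.5 TPM in WT. In each experiment the 2 libraries were close, with differences of -0.10, 0.06 and 0.18. Cpt1c, the brain form, was 1.73, 0.56 and 1.52 TPM in db/db and 2.91, 0.86 and 0.83 TPM in WT. Cpt1a was thus the most abundant of the 3 Cpt1 forms in every library. Its TPM was 3.70, 7.14 and 3.54 times that of Cpt2 in db/db and 3.72, 3.84 and 3.94 times in WT.

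The acyl-CoA dehydrogenases begin each cycle, and each prefers a range of chain lengths. Acadvl, for very long chains, was 48.0, 62.2 and 54.7 TPM in db/db and 55.7, 54.6 and 51.2 TPM in WT. It varied least of all the tested genes, with a within-group SD of 0.14 on the log2 scale, against a median of 0.44 over the 25 genes and 0.46 over all genes tested. Acadl, for long chains, was 27.7, 29.3 and 28.8 TPM in db/db and 18.5, 30.9 and 34.4 TPM in WT, so its db/db libraries lay between the WT libraries. Acadm, for medium chains, differed 3.82-fold between its highest and lowest library, at 35.9, 49.6 and 66.5 TPM in db/db and 56.0, 17.4 and 57.4 TPM in WT. Its difference was -0.63, 1.46 and 0.21 in experiments 1, 2 and 3, and WT replicate 2 was the low library. Acads, for short chains, was 19.0, 12.9 and 8.04 TPM in db/db and 19.9, 13.1 and 11.96 TPM in WT, lower in db/db in each experiment by -0.06, -0.02 and -0.52. These differences were within the spread between libraries.

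Acadsb, the dehydrogenase for short branched chains that acts in isoleucine breakdown, was the only oxidation enzyme of the 29 whose groups did not overlap. It was 4.43, 8.11 and 6.79 TPM in db/db and 15.7, 9.26 and 10.8 TPM in WT. Every db/db library lay below every WT library, and the differences within the experiments were -1.62, -0.17 and -0.60. The means were 6.44 ± 1.86 TPM in db/db and 11.9 ± 3.36 TPM in WT (SD, n = 3 each). The log2 difference of -0.80 (SE 0.43, 95% interval -1.69 to 0.10) did not pass in limma (adjusted p = 0.919, unadjusted p = 0.0786). Its adjusted p was between 0.572 and 0.9999 over 14 alternatives, and its difference kept its sign in each of them, between -0.99 and -0.59. Pdk4, a PPAR target taken up below, was the other gene whose groups did not overlap. Thus 2 of the 25 tested genes had all db/db libraries below all WT libraries, where 2.32% of all genes did, and 0 had all of them above, where 7.85% of all genes did.

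**Figure D2:**
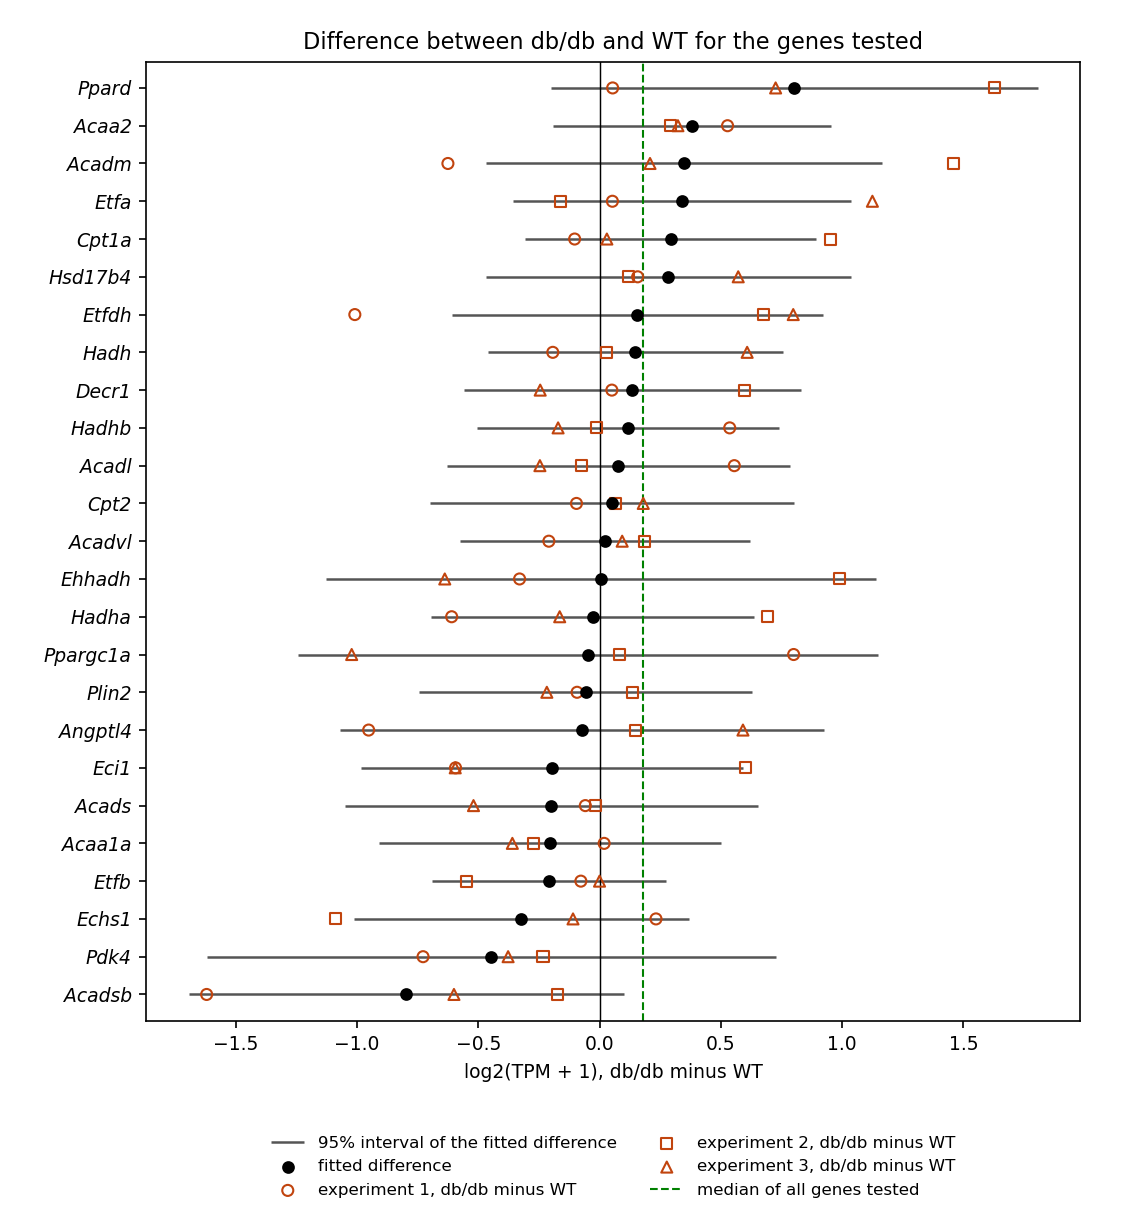
Difference between db/db and WT in log2(TPM + 1) for the 25 tested genes, sorted from highest to lowest, with the fitted value, its 95% interval and the difference within each experiment. Every interval holds 0, and most genes lie to the left of the dashed median of all genes at 0.18.

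The last steps for long chains run on the mitochondrial trifunctional protein, a complex of the alpha subunit Hadha, with hydratase and dehydrogenase activity, and the beta subunit Hadhb, the thiolase. Hadha was 37.1, 73.8 and 65.4 TPM in db/db and 57.2, 45.3 and 73.4 TPM in WT. Hadhb was 68.7, 62.2 and 79.0 TPM in db/db and 47.0, 62.8 and 89.1 TPM in WT. Both overlapped between the groups, with differences of -0.03 (SE 0.32) and 0.12 (SE 0.30). The subunits differed in opposite directions in experiment 1 and by nearly the same amount in experiment 3. Within experiment 1 Hadha differed by -0.61 and Hadhb by 0.54, and in experiment 2 Hadha differed by 0.69 and Hadhb by -0.01. In experiment 3 the differences were -0.16 for Hadha and -0.17 for Hadhb. The ratio of Hadhb to Hadha was 1.85, 0.844 and 1.21 in db/db and 0.822, 1.39 and 1.21 in WT. The pair is of interest because both genes start from one stretch of DNA and run away from each other. In the RefSeq promoter windows (GRCm38.p6) 272 bases lie between the 2 starts. The stretch held by both windows, chr5:30155003-30155230 on the plus strand, is printed 5′ to 3′ from the Hadha side to the Hadhb side, all in lower case because no PPAR core motif was found in it:
Hadha-Hadhb: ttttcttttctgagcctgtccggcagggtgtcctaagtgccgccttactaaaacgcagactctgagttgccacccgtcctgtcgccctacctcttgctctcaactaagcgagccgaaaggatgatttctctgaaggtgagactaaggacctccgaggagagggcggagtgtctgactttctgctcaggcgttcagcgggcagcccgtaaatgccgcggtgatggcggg
The G and C bases made up 57% of this stretch.

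The other matrix enzymes act on medium and short chains or on double bonds. Acaa2, the thiolase for medium chains, was 90.7, 88.5 and 114 TPM in db/db and 62.6, 72.1 and 90.8 TPM in WT. It was higher in db/db in each experiment, by 0.53, 0.29 and 0.32, although WT replicate 3 reached the db/db range. The difference of 0.38 (SE 0.28, 95% interval -0.19 to 0.96) did not pass in limma (adjusted p = 0.92), and after median-of-ratios scaling it was 0.19. Hadh, the dehydrogenase for medium and short chains, was 58.5, 65.7 and 106 TPM in db/db and 67.0, 64.4 and 68.9 TPM in WT. One library, db/db replicate 3, stood above 5 that lay close together. Echs1, the short-chain hydratase, was 40.9, 27.9 and 52.7 TPM in db/db and 34.7, 60.5 and 56.9 TPM in WT, with a difference of -1.09 in experiment 2 and 0.23 and -0.11 in the other two. It overlaps Paox in the annotation. Eci1, which shifts double bonds of unsaturated chains, ranged most widely here, at 25.6, 73.1 and 60.4 TPM in db/db and 39.2, 47.9 and 91.8 TPM in WT. Decr1, the dienoyl-CoA reductase for such chains, was 38.9, 44.6 and 55.4 TPM in db/db and 37.5, 29.1 and 65.8 TPM in WT. Neither followed genotype across the 3 experiments.

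Peroxisomal enzymes were represented by a thiolase and 2 multifunctional enzymes. Acaa1a, the thiolase, was 26.6, 21.3 and 18.3 TPM in db/db and 26.2, 25.99 and 23.8 TPM in WT. Its near-identical copy Acaa1b was at 0.10 TPM in db/db replicate 1 and at 0 in the other libraries, and the sum of the 2 was 22.1 ± 4.24 TPM in db/db and 25.3 ± 1.34 TPM in WT (SD, n = 3 each). Ehhadh, the L-bifunctional enzyme and a known PPAR alpha target in liver, was low at 3.83, 4.02 and 1.57 TPM in db/db and 5.07, 1.53 and 3.00 TPM in WT. Hsd17b4, the D-bifunctional enzyme for branched chains, was 27.8, 27.2 and 59.9 TPM in db/db and 24.8, 24.9 and 40.0 TPM in WT. It was higher in db/db in each experiment, by 0.16, 0.12 and 0.57, and the difference of 0.28 (SE 0.36) did not pass in limma (adjusted p = 0.929). Without db/db replicate 3 its difference was -0.08.

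Electrons from the acyl-CoA dehydrogenases pass to electron transfer flavoprotein, a dimer of Etfa and Etfb, and from there to the quinone pool through Etfdh. Etfb was the most abundant of the 29 genes, at 431, 298 and 356 TPM in db/db and 455, 436 and 356 TPM in WT, above 97.8% of all genes tested. In experiment 3 the 2 libraries were equal to within 0.01 TPM, and in experiments 1 and 2 db/db was lower by -0.08 and -0.55. The difference of -0.21 (SE 0.23, 95% interval -0.69 to 0.27) did not pass in limma (adjusted p = 0.925). Etfa was 37.8, 42.1 and 85.9 TPM in db/db and 36.4, 47.3 and 38.8 TPM in WT, so db/db replicate 3 stood above all other libraries. Etfdh was 19.6, 34.2 and 45.0 TPM in db/db and 40.4, 21.0 and 25.4 TPM in WT, with opposite signs in experiment 1 (-1.01) and experiments 2 and 3 (0.68 and 0.80). The 2 subunits of the dimer were far from equal on the TPM scale. The ratio of Etfb to Etfa was 11.4, 7.07 and 4.15 in db/db and 12.5, 9.22 and 9.18 in WT, with means of 7.55 ± 3.65 in db/db and 10.3 ± 1.90 in WT (SD, n = 3 each) and groups that overlapped. Etfb overlaps Cldnd2 and Etfdh overlaps Ppid in the annotation, and Cpt1a, Acadl, Hsd17b4 and Plin2 overlap predicted genes; reads of such pairs can be assigned to either gene where strand is not used; whether the authors' counting used strand is not given in the sources used here.

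**Figure D3:**
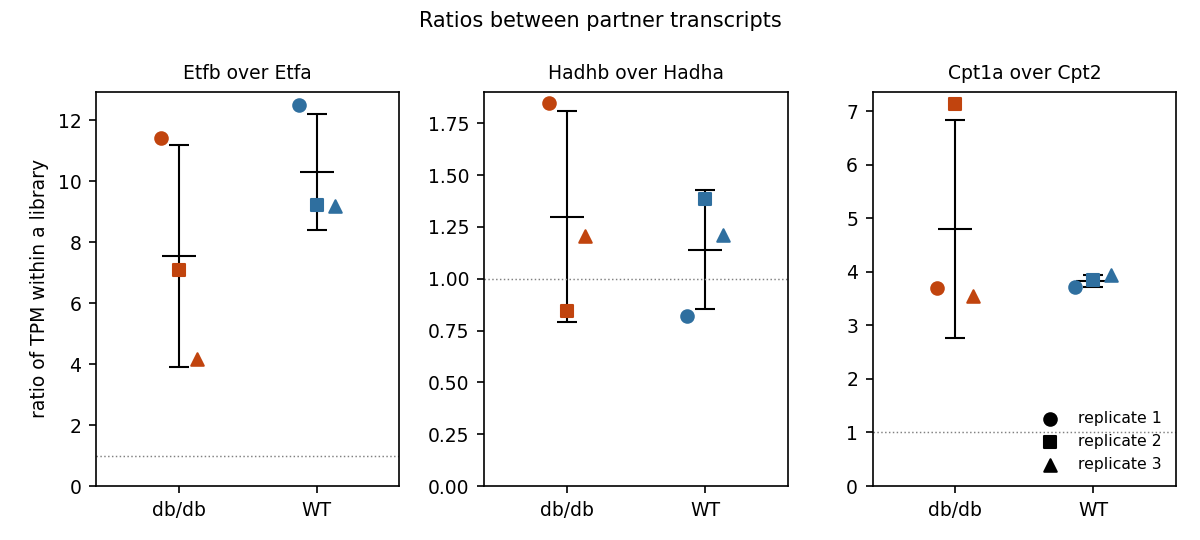
Ratio of TPM within each library for 3 pairs that work together, with db/db left of WT, 1 marker shape per replicate, the mean as a dash and the SD as bars. Etfb exceeds Etfa in all 6 libraries, from 4.15 to 12.5, and Hadhb and Hadha lie on both sides of equality, drawn as a dotted line at 1.

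Of the receptor transcripts, that of PPAR delta had the highest level in every library. Ppard was 5.80, 13.9 and 18.2 TPM in db/db and 5.55, 3.81 and 10.6 TPM in WT. It was higher in db/db in each experiment, by 0.05, 1.63 and 0.73, but db/db replicate 1 lay within the WT range. The means were 12.6 ± 6.30 TPM in db/db and 6.66 ± 3.54 TPM in WT (SD, n = 3 each). The difference of 0.80 (SE 0.48, 95% interval -0.20 to 1.81) was the highest of the 25 genes and did not pass in limma (adjusted p = 0.919, within a range of 0.451 to 0.9999 over 14 alternatives). With db/db replicate 1 left out the difference was 1.24, with db/db replicate 3 left out it was 0.49, and it was 0.63 after median-of-ratios scaling. The gene overlaps 1810013A23Rik in the annotation. Ppara, the form of liver and heart, was listed at 0 in 5 libraries and at 0.38 TPM in WT replicate 3. Pparg, the adipocyte form, was 0.14, 0 and 0 TPM in db/db and 1.84, 0 and 1.62 TPM in WT. Both were under the level needed for a test. Ppargc1a, a coactivator that raises mitochondrial biogenesis, was near that level at 2.57, 1.71 and 0.94 TPM in db/db and 1.05, 1.56 and 2.94 TPM in WT. Of 8 adipocyte markers, Cidec and Lep were listed at 0 in every library, and the summed level of the 8 was 7.97, 12.98 and 28.7 TPM in db/db and 12.5, 21.2 and 17.4 TPM in WT. Lipe, a lipase, was the highest of the 8 on average. The part of such cells in the Pparg values was not tested.

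Of the 4 genes taken here as PPAR targets, the 3 that were tested had fitted differences below 0, from -0.45 for Pdk4 to -0.06 for Plin2, and none passed. The differences of Angptl4 and Plin2 were near 0 and turned sign in 4 and 2 of 14 alternatives. Of 15 other known PPAR targets tested, given below, 9 had differences above 0 and 6 below, with a median of 0.43. Of all 11931 genes tested, 8125 had differences above 0 and 3806 below, with a median of 0.18. Pdk4, a kinase that turns off pyruvate dehydrogenase and so favours fat over glucose as fuel, was 1.18, 1.11 and 1.21 TPM in db/db and 2.61, 1.48 and 1.87 TPM in WT. All db/db libraries lay below all WT libraries, with means of 1.17 ± 0.05 TPM in db/db and 1.99 ± 0.57 TPM in WT (SD, n = 3 each). The difference of -0.45 (SE 0.57, 95% interval -1.62 to 0.73) did not pass in limma (adjusted p = 0.926), and at this level, without known read depth, the log2(TPM + 1) scale understates a change. Angptl4, a secreted inhibitor of lipoprotein lipase, was 6.48, 6.25 and 19.5 TPM in db/db and 13.5, 5.55 and 12.6 TPM in WT. Its difference was -0.07 (SE 0.48), and it varied most of the tested genes, with a within-group SD of 0.75 on the log2 scale. Plin2, a coat protein of lipid droplets, was 24.3, 39.0 and 33.6 TPM in db/db and 26.02, 35.3 and 39.2 TPM in WT, a difference of -0.06 (SE 0.33). Each experiment gave it a difference between -0.22 and 0.14. Cd36, a fatty acid and lipoprotein receptor of macrophages, platelets and other cells, was 1.90, 0.75 and 0.36 TPM in db/db and 0.14, 0.55 and 0.54 TPM in WT, under the level needed for a test. The summed level of 12 macrophage and monocyte markers, with Cd68 the highest, was 142, 140 and 77.7 TPM in db/db and 105, 31.0 and 54.4 TPM in WT, and all 12 were above 0 in some library. The 7 of these markers that were tested all had differences above 0, with a median of 1.38. Of these 7, 3 were higher at an unadjusted p under 0.05 in limma, against 4.1% of all genes, and 0 passed. The part of such cells in the Cd36 values was not tested.

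PPARs with their retinoid partner bind a direct repeat of the core AGGTCA with any 1 base between the copies. The RefSeq promoter table (GRCm38.p6, 250 bases before to 50 after a start) had 26 windows for 24 of the 29 genes. Acaa2, Angptl4, Cpt1b, Decr1 and Hsd17b4 had none. The whole repeat, searched on both strands as an exact copy only, was in 0 of the 26 windows and in 0.0396% of all 32851 windows. At so low a share, 0 in 26 windows cannot show that these genes lack such elements. Inexact copies and DNA outside the windows were not searched. The core alone, AGGTCA or its reverse complement TGACCT, was in 8 of the 26 windows (30.8%) and in 16.3% of all windows. Counted by gene, it was in 7 of the 24 genes and in 4900 of all 27025 genes with a window. The sites of 3 enzymes and 2 targets, all upstream of the start, are shown with their neighbouring bases on the strand of the gene, 5′ to 3′, with the core in capitals:
Cpt1a: cagtttccttacTGACCTcctccccgcagc
Acadvl: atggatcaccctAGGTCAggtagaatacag
Echs1: accagcccgctcAGGTCAcgggtccacccc
Plin2: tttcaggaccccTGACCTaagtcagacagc
Cd36: ctctgcactttaTGACCTgagattttcagg
They lie at chr19:3323195-3323224 (plus strand) for Cpt1a, chr11:70015498-70015527 (minus) for Acadvl, chr7:140116487-140116516 (minus) for Echs1, chr4:86670260-86670289 (minus) for Plin2 and chr5:17836107-17836136 (minus) for Cd36. The distance from core to start was 88, 81, 77, 212 and 222 bases in that order. The remaining genes with a core were Acadm and Pparg, the second with 1 in each of 2 windows. Acadsb, Pdk4 and Ppard, the genes at the ends of the range of differences, had none in these windows. A match is a string of letters and not a bound site.

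Other genes of the pathway were read from 7 lists, which hold 120 symbols of the table, and 91 of these were tested. None passed in limma with Benjamini-Hochberg adjustment, with an unadjusted p under 0.05 for 4 genes higher in db/db and 0 lower, and the median difference was 0.21, against 0.18 for all genes. All db/db libraries lay above all WT libraries for 12 of the 91 (13.2%, against 7.85% of all genes) and below them for 1 (1.1%, against 2.32%).

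Regulators of fuel choice and PPAR partners had 26 tested genes of 27, with a median difference of 0.28. Pdk3 and Pdk1, sister kinases of Pdk4, were 87.7 ± 10.2 and 34.0 ± 3.39 TPM in db/db and 56.2 ± 8.92 and 22.95 ± 4.39 TPM in WT (SD, n = 3 each). For both, the db/db libraries lay above the WT libraries, the opposite of Pdk4, with differences of 0.64 (SE 0.28, unadjusted p = 0.0335) and 0.56 (SE 0.33, unadjusted p = 0.103). Neither passed in limma (adjusted p = 0.899 and 0.919). Pdk2, a further sister kinase, was 60.0 ± 7.86 TPM in db/db and 58.5 ± 15.7 TPM in WT, with overlap (difference 0.06, SE 0.30). Nrip1, a corepressor of nuclear receptors, was 43.6 ± 17.6 TPM in db/db and 26.5 ± 4.79 TPM in WT, without overlap (difference 0.64, SE 0.34). The most abundant was Sirt3, a mitochondrial deacetylase, at 88.4 ± 13.6 TPM in db/db and 71.1 ± 7.02 TPM in WT.

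Among 15 other known PPAR targets tested, of 29 listed, the median difference was 0.43. Acot1, a cytosolic acyl-CoA thioesterase, was 41.8 ± 8.12 TPM in db/db and 23.0 ± 5.93 TPM in WT, and Ucp2, a mitochondrial carrier, was 342 ± 6.96 TPM in db/db and 236 ± 11.2 TPM in WT (SD, n = 3 each). Neither overlapped between groups, with differences of 0.84 (SE 0.34, unadjusted p = 0.0205) and 0.54 (SE 0.23, unadjusted p = 0.0269), and neither passed in limma (adjusted p = 0.875 and 0.899). Acot1 can share reads with its near-identical neighbour Acot2, and their sum was 144 ± 25.2 TPM in db/db and 102 ± 37.4 TPM in WT. Txnip, an inhibitor of glucose uptake, was the most abundant at 770 ± 144 TPM in db/db and 577 ± 342 TPM in WT. At the other end, Cidea, Cidec, Cyp4a10, Cyp4a14, Fgf21, Pck1 and Ucp3, targets known from liver, fat or muscle, were listed at 0 in every library.

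In the list of lipid droplets and lipolysis, 8 of 16 genes were tested, with a median difference of 0.24. Hilpda, an inhibitor of the lipase Pnpla2, was 63.4 ± 11.5 TPM in db/db and 36.5 ± 4.41 TPM in WT, without overlap. Its difference of 0.77 (SE 0.30, unadjusted p = 0.0177) did not pass in limma (adjusted p = 0.853). Pnpla2 itself was 82.4 ± 8.28 TPM in db/db and 66.2 ± 20.4 TPM in WT, and Plin3, another droplet coat protein, was 16.9 ± 3.01 TPM in db/db and 23.0 ± 3.37 TPM in WT.

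All 15 genes listed as other mitochondrial enzymes were tested, with a median difference of 0.31. The thioesterases Acot13 and Acot9 were 79.1 ± 6.78 and 19.1 ± 5.23 TPM in db/db and 53.7 ± 7.35 and 11.2 ± 5.59 TPM in WT, and only Acot13 had groups without overlap. Acad12, a further acyl-CoA dehydrogenase, was 1.30 ± 1.16 TPM in db/db and 3.46 ± 0.151 TPM in WT and was the 1 pathway gene whose db/db libraries all lay below the WT libraries. The most abundant was Hsd17b10, a dehydrogenase that is also part of mitochondrial RNase P, at 476 ± 51.5 TPM in db/db and 384 ± 34.6 TPM in WT. Adjusted p-values of these 4 in limma were 0.919 or 0.92.

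Peroxisomal oxidation had 14 tested genes of 18 and a median difference of 0.18. Its genes of smallest p were Slc25a17, a peroxisomal carrier, at 55.7 ± 11.5 TPM in db/db and 36.25 ± 17.01 TPM in WT, Amacr, a racemase for branched chains, at 3.52 ± 2.54 TPM in db/db and 7.91 ± 6.84 TPM in WT, and Hacl1, a lyase of alpha-oxidation, at 12.6 ± 3.00 TPM in db/db and 8.17 ± 1.11 TPM in WT. Hacl1 had groups without overlap.

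The 7 tested genes of carnitine handling, of 11 listed, had a median difference of 0.21 and no gene without overlap. Slc25a20, the translocase that works between Cpt1 and Cpt2, was 66.9 ± 16.4 TPM in db/db and 54.6 ± 11.2 TPM in WT, and the plasma membrane carnitine transporter Slc22a5 was 10.5 ± 2.51 TPM in db/db and 7.89 ± 5.85 TPM in WT. Its relative Slc22a21 was 0.84 ± 0.31 TPM in db/db and 1.53 ± 1.02 TPM in WT. Fatty acid uptake and activation lay lowest, with 15 tested genes of 19 and a median difference of -0.15. There the acyl-CoA synthetase Acsl1 was 31.1 ± 11.5 TPM in db/db and 21.5 ± 8.23 TPM in WT, the lipase Lpl was 0.907 ± 1 TPM in db/db and 2.11 ± 1.18 TPM in WT, and the transporter Slc27a6 was 8.42 ± 4.33 TPM in db/db and 12.6 ± 8.37 TPM in WT. Dbi, the acyl-CoA binding protein, was the most abundant at 440 ± 11.7 TPM in db/db and 403 ± 90.6 TPM in WT. None of these passed in limma (adjusted p 0.92 to 0.929).

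**Figure D4:**
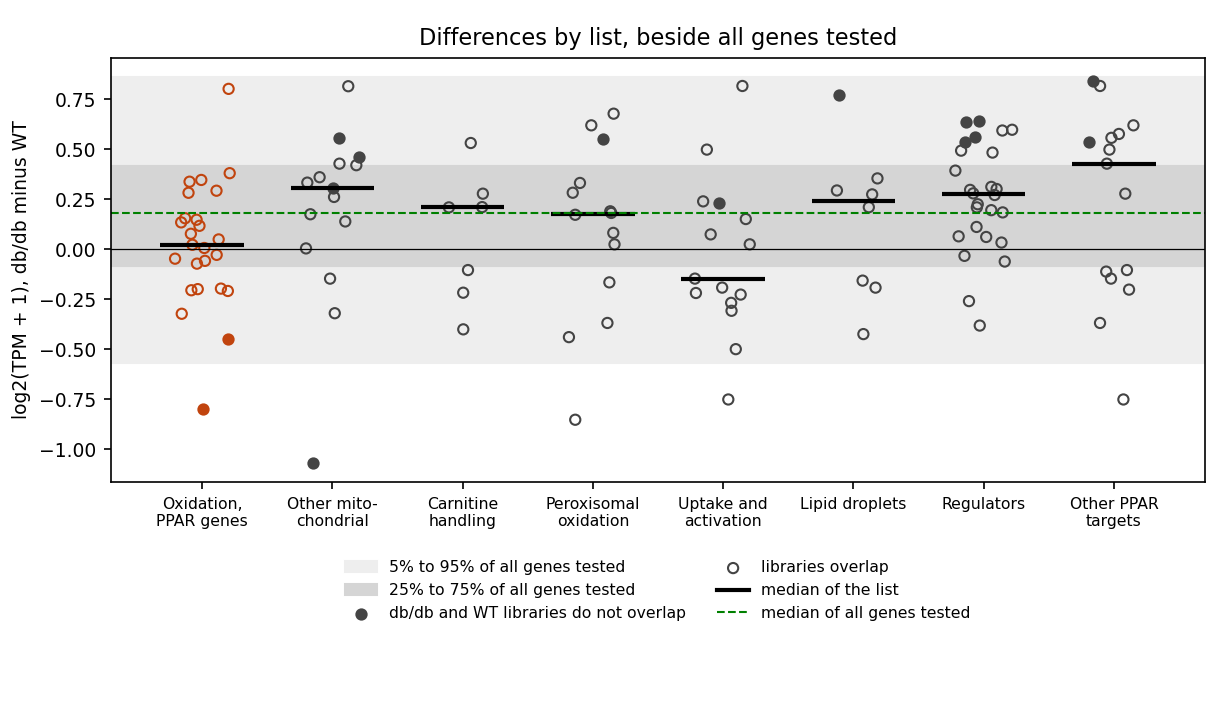
Difference between db/db and WT in log2(TPM + 1) for the tested genes of the 29 and of 7 lists of other pathway genes, 1 point per gene, with the list medians as bars and the spread of all tested genes as grey bands. The bar of the 29 lies at 0.02 and that of uptake and activation at -0.15, below the dashed median of all genes at 0.18, and the other 6 lie between 0.18 and 0.43.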

How the data were processed

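The authors' deposited table holds TPM values per gene symbol and library, for which the submitters' processing notes name RSEM, Bowtie2 and the build mm9. Their versions, the settings and the annotation are not given in the sources used here. TPM keeps no read depth, so depth is unknown, no counting interval or floor could be given, and precision rests on the spread of 3 libraries per group. Limma 3.58.1 in R 4.3.3 was fitted to log2(TPM + 1) for the 11931 genes averaging 1 TPM or more. Genotype was the sole term, the variance had a trend, tests were two-sided and p-values were adjusted by Benjamini and Hochberg's method. Moderation had 17.7 prior and 4 residual degrees of freedom, and 95% intervals use their sum. The script was tested on simulated data. Differences understate changes of low genes.

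The labels pair 1 db/db with 1 WT library by experiment. Deviations from group means correlated at 0.04, 0.01 and 0.16 within experiments 1, 2 and 3. Between db/db and WT libraries of different experiments they correlated at -0.12 to 0.08. At most 0.654% of genes had identical values in any 2 libraries. The labels name separate experiments, and spread may include technical variation. The members and lists were chosen with earlier results of these data known. All 29 genes are named, with values per library for all of them and not only those the rule asks for; of each other list, the 3 genes of smallest p and the most abundant, and of marker lists the most abundant and those at 0. Some genes this rule selects are not reported here. Cd48, Slamf1, Hba-a1, Hbb-b1, Hbb-b2, Cpt1c, Acaa1b, Pdk2 and targets at 0 were named after their values were seen. Of 121 pathway symbols 120 were found, 1 under an older symbol. Sequences are RefSeq's (GRCm38.p6); no coordinates were joined to the mm9 values.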

Additional observations from a re-analysis of the deposited data

How the results depend on the processing

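The settings tried were a pseudocount of 0.1, no filter, a higher filter of 5 TPM, median-of-ratios scaling, quantile normalization, the experiment as a replicate block, scaling with the block, moderation without a trend, and each library left out. In none of these 14 did any of the 25 genes, or any of the other pathway genes, pass in limma; the lowest adjusted p of the 25 was 0.451, for Ppard without db/db replicate 1. At an unadjusted p under 0.05 in limma, Acadsb was lower in db/db after quantile normalization and after median-of-ratios scaling, with or without the replicate block. Without the trend 1 of the 25 genes was lower at that level, and without a filter 1 of all 29. Ppard was higher at that level without db/db replicate 1 and without WT replicate 3. The relative median of the 25 stayed below 0, between -0.19 and -0.08, the second without db/db replicate 2. With the replicate block no call on these genes changed, and 6 genes passed over the whole table, against 4. That count was 0 without a filter or without the trend, 1 after median-of-ratios scaling or quantile normalization, and 4 to 18 with 1 library left out, the highest without WT replicate 1. Scaling moved the median of all genes from 0.18 to 0.00, or to 0.01 with quantile normalization, and turned the sign of 8 small differences: Cpt2 -0.14, Acadl -0.11, Acadvl -0.17, Hadhb -0.0744, Hadh -0.0450, Decr1 -0.0552, Ehhadh -0.12 and Etfdh -0.0351 after median-of-ratios scaling, with or without the replicate block, and -0.15, -0.11, -0.15, -0.0677, -0.0341, -0.0616, -0.11 and -0.0312 in the same order after quantile normalization. Leaving out 1 library turned the sign of 17 genes at least once, with ranges of Cpt2 -0.22 to 0.27, Acads -0.48 to 0.0954, Acadm -0.20 to 0.63, Acadl -0.18 to 0.25, Acadvl -0.0686 to 0.12, Hadha -0.22 to 0.27, Hadhb -0.10 to 0.35, Hadh -0.10 to 0.32, Eci1 -0.49 to 0.25, Decr1 -0.12 to 0.46, Ehhadh -0.31 to 0.32, Hsd17b4 -0.0826 to 0.50, Etfa -0.0239 to 0.56, Etfdh -0.10 to 0.48, Ppargc1a -0.26 to 0.21, Angptl4 -0.56 to 0.19 and Plin2 -0.22 to 0.13. Acadsb, Pdk4, Ppard, Acaa2, Cpt1a, Echs1, Acaa1a and Etfb kept their sign in all alternatives that tested them. The cause of these turns was not tested beyond the scaling itself. Unknown depth limits Pdk4, Ppargc1a and the 4 untested genes most.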

Other observations

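Which library held the highest or lowest value of a gene was uneven over all genes, and the counts for the 25 are given beside those shares as a description. Of the 25, 9 had their highest value in db/db replicate 3 and 6 in WT replicate 3, where 30.7% and 19.9% of all genes tested did. The lowest value fell in db/db replicate 1 for 7 and in WT replicate 2 for 7, against 21.7% and 34.1% of all genes. Summed over the 29 genes, the TPM was 1208, 1251 and 1522 in db/db and 1280, 1205 and 1436 in WT, or 0.121% to 0.152% of each db/db library and 0.1205% to 0.144% of each WT library. Experiment 3 gave the highest sum in both genotypes. The ratio of Acadm to Acads was 1.89, 3.85 and 8.27 in db/db and 2.82, 1.33 and 4.803 in WT, and that of Acadvl to Acadl was 1.73, 2.13 and 1.90 in db/db and 3.01, 1.77 and 1.49 in WT.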
